A study of Mus musculus with 48 samples.

Results

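Transcripts of 9 genes that interferons induce were followed in the brains of 24 adult mice after 12 h of enforced wakefulness. The genes were Ifi47, Irgm1, Igtp, Iigp1, Gbp2, Gbp3, Ifit1, Ifit3 and Isg15. They were read by 10 probes of a 1-colour Agilent array, every probe whose RefSeq accession belongs to 1 of them, out of 41174 probes for 18883 named genes. Irgm1 had 2 probes and each of the other genes had 1. The genes were chosen by name, not by a measured value, and all 10 probes passed the filter on dim probes. Frontal cortex and hypothalamus of every mouse were measured, each on 1 array. The mice were homozygous knock-ins in which exon 18 of mouse Per3 had been replaced by human PER3 exon 18 with 5 repeats (8 mice, Per3 5/5) or with 4 repeats (8 mice, Per3 4/4). A further 8 mice were wild type (WT) and came from the same conditional transgenic lines. All 3 genotypes shared a C57BL/6 background, derived from C57BL/6-Thy1.1 embryonic stem cells and crosses to C57BL/6J. Recombination by a ubiquitously expressed Cre had produced the knock-in alleles, and the Cre had then been bred out. The lines were bred from homozygous pairs, so a line and its genotype cannot be told apart. Sleep deprivation (SD) began at light onset and was carried out on mixed genotypes together. No rested mice were measured here, and the sex of the mice is not given in the sources used here.

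Interferons are cytokines that act through cell surface receptors, JAK kinases and STAT proteins. Type I interferons drive genes through the factor complex that binds the interferon-stimulated response element (ISRE), and interferon gamma drives genes through the gamma-activated site (GAS). The proteins made include immunity-related GTPases (IRG), guanylate-binding proteins (GBP), the RNA-binding IFIT proteins and the ubiquitin-like protein Isg15. In brain, microglia, astrocytes, endothelial cells and neurons can all express such genes.

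The promoters of the genes show how far they share these elements. RefSeq windows of 300 bases (GRCm38.p6, 250 before to 50 after the start of the gene) were at hand for 8 of the 9 genes, all but Iigp1. Both strands were searched for the ISRE core (GAAA, any 2 bases, GAAA) and for the GAS letters TTCNNNGAA. The ISRE core was found in 7 of the 8 genes and in 3.44% of 32851 windows of all genes, and the GAS letters were found in 1 of the 8 and in 8.30% of all windows. Ifi47 was the gene with neither. The matches, in capitals, are shown with 10 bases on either side or with as many as fill 30 bases, 5′ to 3′ on the strand of the gene, because they mark what most of the genes have in common and what Ifi47 lacks in this window.
Igtp ISRE core, chr11:58199512-58199541, plus strand, 34 bases before the start: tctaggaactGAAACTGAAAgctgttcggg
Igtp GAS letters, chr11:58199501-58199530, plus strand, 45 bases before the start: aactagccatTTCTAGGAActgaaactgaa
Irgm1, chr11:48871425-48871454, minus strand, 24 bases before the start: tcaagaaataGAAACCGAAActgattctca
Gbp2, chr3:142620594-142620623, plus strand, 59 bases before the start: actcttttagTTTCACTTTCactgtcttaa
Gbp3, chr3:142559989-142560018, plus strand, 45 bases before the start: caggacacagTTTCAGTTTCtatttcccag
Ifit1, chr19:34640775-34640804, plus strand, 104 bases before the start: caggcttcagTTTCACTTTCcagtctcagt
Ifit1, chr19:34640794-34640823, plus strand, 85 bases before the start: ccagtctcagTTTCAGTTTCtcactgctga
Ifit3, chr19:34583363-34583392, plus strand, 156 bases before the start: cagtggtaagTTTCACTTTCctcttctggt
Ifit3, chr19:34583397-34583426, plus strand, 122 bases before the start: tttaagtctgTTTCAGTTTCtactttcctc
Isg15, chr4:156200871-156200900, minus strand, 72 bases before the start: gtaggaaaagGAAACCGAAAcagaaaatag
Further ISRE cores overlapped the printed ones in Irgm1, Gbp3 and Isg15. Both Ifit genes held 2 separate cores, and in Igtp the GAS letters ended 2 bases before the ISRE core began. A match of letters is a description and does not show that a factor was bound in these samples.

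A level is given throughout as the log2 of the processed signal minus the log2 of the 75th percentile of the same array, so that 0 is the brightness of that percentile and 1 unit is a 2-fold change. Probes differ in how strongly they bind, so levels are compared between mice and not between probes. A probe was called when limma gave a Benjamini-Hochberg adjusted p under 0.05 over all probes tested. The arrays were scanned on 3 days. The first scan day covered 4 mice of each knock-in and no WT, the second 5 WT with 3 Per3 4/4 mice, and the third 3 WT with 4 Per3 5/5 and 1 Per3 4/4, so values with scan day as a block are given as well. The 75th percentile of the signal was 973 to 1463 intensity units in WT cortex, 727 to 1148 in Per3 5/5 cortex and 324 to 1102 in Per3 4/4 cortex. In hypothalamus it was 1206 to 1884 in WT, 917 to 1217 in Per3 5/5 and 307 to 1575 in Per3 4/4. In the tissues, the summed level of the hypothalamus markers was 0.914 to 5.04 in cortex and 243 to 448 in hypothalamus.

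The libraries labelled Per3 5/5 replicate 2 and Per3 4/4 replicate 2, which shared a slide, went against their labels. They were noticed through Ifi47, and they were then examined on 50 other probes that differed most between the knock-in genotypes without that pair. On these probes, with 0 at the mean of Per3 4/4 mice and 1 at the mean of Per3 5/5 mice, the mouse labelled Per3 5/5 replicate 2 stood at 0.13 in cortex and 0.07 in hypothalamus. The mouse labelled Per3 4/4 replicate 2 stood at 0.72 and 0.64. Both were past the midpoint between the genotypes in each tissue. Of the other knock-in mice 6 were past it in 1 tissue. In Per3 5/5 these were replicate 1 in cortex (−0.08) and replicates 4 and 5 in hypothalamus (0.33 and 0.43), and in Per3 4/4 they were replicates 1, 5 and 8 in cortex (0.52, 0.62 and 0.53). Without that pair, limma on the knock-in mice alone called 24 probes in each tissue, and without any other same-numbered pair it called 0. The labels were kept, the cause was not tested, and the calls that rest on these mice are given with and without them.

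**Figure D1:**
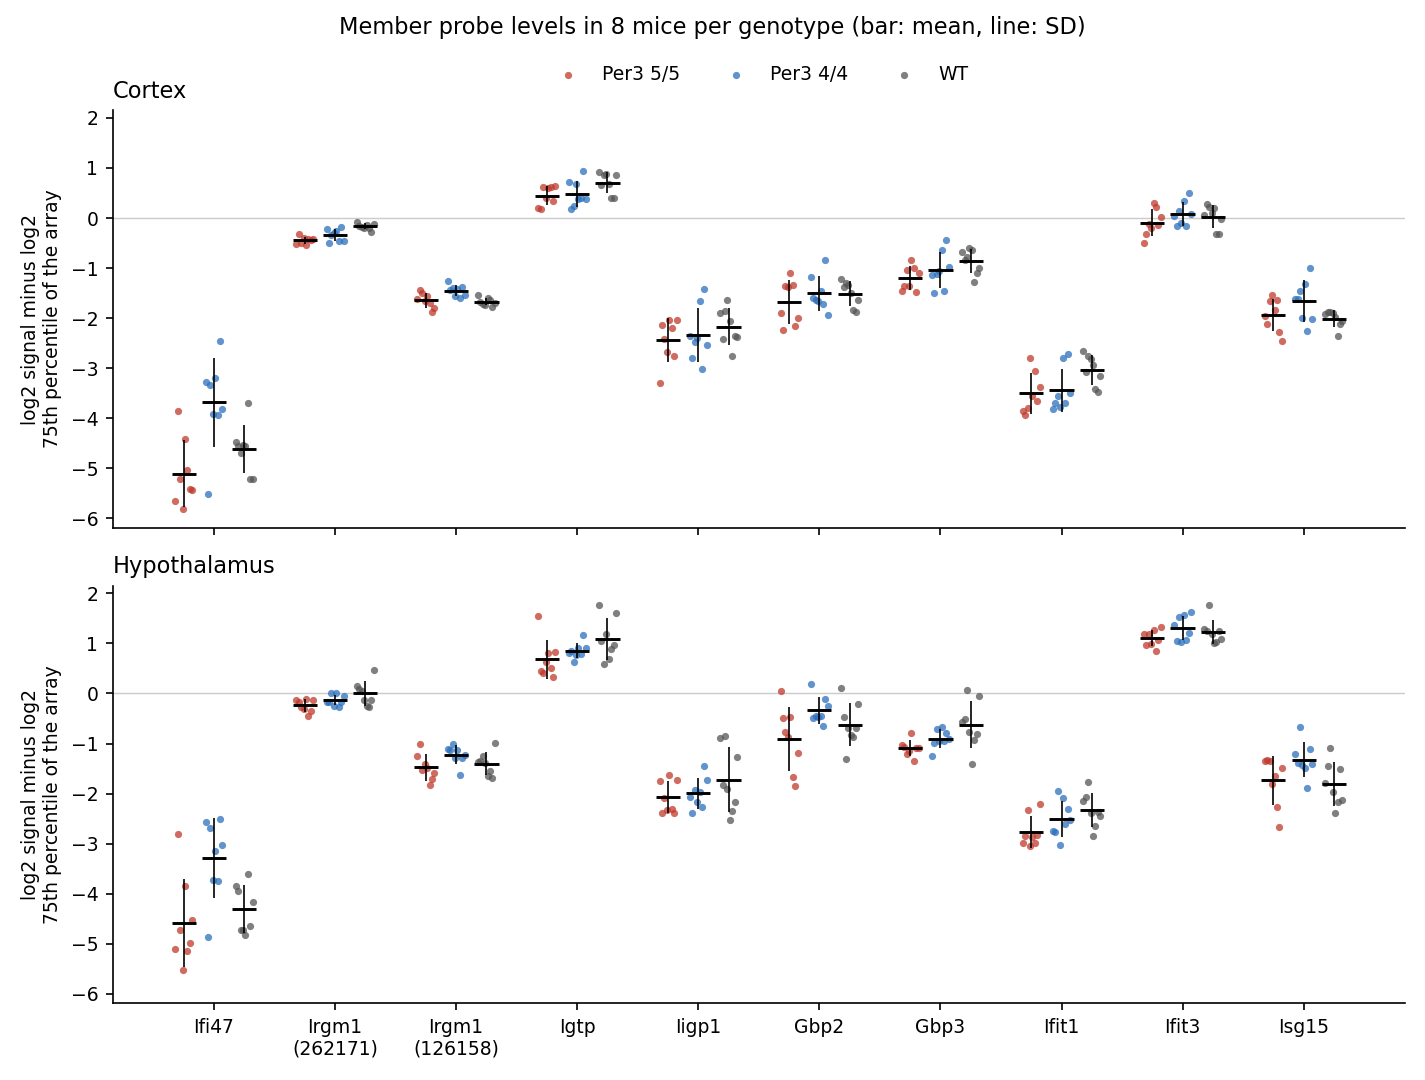
Log2 level of each of the 10 probes (vertical axis, log2 signal minus log2 75th percentile of the array) in cortex (top) and hypothalamus (bottom), with 1 point per mouse, 8 mice per genotype, a bar at the mean and a line for the SD. Ifi47 spans more than 3 log2 units in cortex, and the Irgm1 probe A_51_P262171 is the one probe whose Per3 5/5 and WT mice in cortex do not overlap.

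Ifi47 was the most variable gene of the group and the one with the largest difference between Per3 4/4 mice and either other genotype. Its mean was higher in Per3 4/4 than in WT mice in both tissues, and its lowest levels were in Per3 5/5 mice. Ifi47 encodes a member of the IRG family, a GTPase that interferon gamma induces. In cortex its level ran from −5.52 through a median of −3.58 to −2.45 in Per3 4/4 mice, from −5.22 through −4.55 to −3.70 in WT mice and from −5.81 through −5.32 to −3.85 in Per3 5/5 mice. In hypothalamus it ran from −4.87 through −3.09 to −2.51 in Per3 4/4, from −4.83 through −4.41 to −3.60 in WT and from −5.52 through −4.86 to −2.81 in Per3 5/5. Thus 4 of 8 Per3 4/4 mice in cortex and 5 of 8 in hypothalamus lay above every WT mouse, and all 3 groups overlapped. Over 24 mice Ifi47 had an SD of 0.90 in cortex and 0.91 in hypothalamus. Within genotypes its SD was 0.70 in cortex, where the median probe had 0.25 and 92.4% of the probes varied as much or less. In hypothalamus its SD within genotypes was 0.74, where the median probe had 0.28 and 94.3% of the probes varied as much or less.

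Per3 4/4 mice exceeded WT mice in Ifi47 by 0.94 ± 0.33 in cortex (log2 difference ± SE, adjusted p = 0.0442) and by 1.03 ± 0.35 in hypothalamus (adjusted p = 0.0491). When cortex and hypothalamus of a mouse were averaged the difference was 0.98 ± 0.33 (adjusted p = 0.0266). These calls lay close to the threshold. Blocking on scan day gave 1.14 (adjusted p = 0.0592), 1.09 (adjusted p = 0.155) and 1.12 (adjusted p = 0.0537), and the call was lost in each. Within the second scan day alone Per3 4/4 minus WT was 1.37 in cortex and 1.28 in hypothalamus, and neither was called (adjusted p = 0.0615 and 0.550). Per3 5/5 and WT mice differed by −0.49, −0.28 and −0.38 in the same order, with adjusted p of 0.322, 0.596 and 0.388.

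Between the knock-in genotypes, the Ifi47 difference of Per3 5/5 minus Per3 4/4 was −1.43 in cortex (95% interval −2.11 to −0.74, adjusted p = 0.245) and −1.30 in hypothalamus (−2.02 to −0.58, adjusted p = 0.227), and neither was called. No probe of the array was called in this comparison, a percent called of 0 in either tissue and for the mean of both, while the unadjusted p was under 0.05 for 4656 cortex probes and 4983 hypothalamus probes. The replicate 2 mice carried much of the overlap. The mouse labelled Per3 5/5 replicate 2 had the highest Ifi47 of its genotype, −3.85 in cortex and −2.81 in hypothalamus, and the mouse labelled Per3 4/4 replicate 2 had the lowest of its genotype, −5.52 and −4.87. Without these mice Per3 5/5 ran from −5.81 to −4.41 and Per3 4/4 from −3.93 to −2.45 in cortex, and from −5.52 to −3.85 and from −3.74 to −2.51 in hypothalamus, so that the knock-in groups no longer overlapped. The differences were then −1.87 and −1.78, and Per3 4/4 minus WT was 1.20 and 1.25. As the mice were noticed through this gene, these values are a description and carry no test. Within the first scan day, which holds both replicate 2 mice, the difference of 4 against 4 mice was −1.12 in cortex and −1.08 in hypothalamus, not called. In Per3 5/5 cortex the probe was dim, with a processed signal of 13.0 to 53.3 intensity units and 7 of 8 arrays well above background. With normexp background correction in place of the authors' processed signal the cortex difference between the knock-ins was −0.73, and that of Per3 5/5 minus WT was 0.18 instead of −0.49.

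Irgm1, a regulator of the other IRG proteins, gave opposite differences with its 2 probes in Per3 4/4 cortex. With A_51_P262171 it was lower in the cortex of both knock-ins, and in cortex every Per3 5/5 mouse lay below every WT mouse. In cortex this probe ran from −0.28 through −0.16 to −0.08 in WT, from −0.55 through −0.43 to −0.32 in Per3 5/5 and from −0.49 through −0.32 to −0.17 in Per3 4/4. The Per3 5/5 mice were lower than WT in cortex (−0.28 ± 0.05, adjusted p = 0.00502) and in the mean of both tissues (−0.26 ± 0.06, adjusted p = 0.00294), and the hypothalamus difference of −0.24 was not called (adjusted p = 0.0638). The block for scan day gave −0.25 (adjusted p = 0.0559) in cortex and −0.25 (adjusted p = 0.0287) in the mean, where the call was kept. Within the third scan day alone the difference was −0.26 in cortex and −0.29 in hypothalamus, not called. Per3 4/4 mice were lower than WT in cortex (−0.17 ± 0.05, adjusted p = 0.0290), a call that was lost when scan day was blocked (−0.17, adjusted p = 0.0781). Without the replicate 2 mice the Per3 5/5 difference in cortex was −0.30 (adjusted p = 0.0064) and the Per3 4/4 difference was −0.15 (adjusted p = 0.0588), so the latter call was lost here too.

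The second Irgm1 probe, A_52_P126158, was higher in Per3 4/4 than in WT cortex. It ran from −1.60 through −1.43 to −1.26 in Per3 4/4, from −1.79 through −1.68 to −1.55 in WT and from −1.87 through −1.64 to −1.43 in Per3 5/5. Of the Per3 4/4 mice 6 of 8 lay above every WT mouse, and the difference was 0.22 ± 0.07 (adjusted p = 0.0191, and 0.0263 without the replicate 2 mice). It was not called with arrays centred on their median (0.16, adjusted p = 0.175) or when scan day was blocked (0.16, adjusted p = 0.125). Per3 5/5 and WT cortex differed by 0.03 in this probe (adjusted p = 0.810).

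The difference between both Irgm1 probes was then compared within each array, which removes the scaling of the array. It does not remove effects of brightness that act unequally on the probes, and the arrays of the genotypes differed in brightness. The comparison was made after the probes had given opposite differences on these arrays, and its p values do not account for that choice. Other genes with more than 1 probe were not compared in this way. The size of this difference has no meaning of its own, since probes respond unequally, but a change in it shows that the probes did not move together. In cortex it was 1.43 to 1.57 in WT, 0.94 to 1.25 in Per3 4/4 and 0.99 to 1.44 in Per3 5/5 mice. No Per3 4/4 array overlapped WT, with an exact two-sided permutation p of 0.000155. Of single cortex probes, 6.7% over the whole array also separated these genotypes fully. Per3 5/5 differed from WT with an exact permutation p of 0.000311. These p were 0.00093 and 0.000933 after Benjamini-Hochberg adjustment over 6 comparisons. In hypothalamus it was 1.25 to 1.57 in WT, 0.93 to 1.38 in Per3 4/4 (exact permutation p = 0.000777, adjusted 0.00155) and 0.84 to 1.46 in Per3 5/5 (exact permutation p = 0.062, adjusted 0.093). Between the knock-ins the exact p was 0.214 in cortex and 0.138 in hypothalamus. Within a scan day the cortex values were 1.14 to 1.21 in Per3 4/4 and 1.46 to 1.54 in WT on day 2, and 1.01 to 1.44 in Per3 5/5 and 1.43 to 1.57 in WT on day 3. In hypothalamus on day 2 the ranges were 1.12 to 1.38 in Per3 4/4 and 1.25 to 1.51 in WT, which overlapped, while the Per3 4/4 mice of day 1, a day without WT, lay at 0.93 to 1.05. In hypothalamus on day 3 the ranges were 1.36 to 1.46 in Per3 5/5 and 1.29 to 1.57 in WT, so there the Per3 5/5 mice did not lie apart from WT. Without the replicate 2 mice the cortex differences from WT were −0.37 in Per3 4/4 and −0.29 in Per3 5/5, with exact p of 0.000311 and 0.000622. In hypothalamus they were −0.28 (exact p = 0.00155) and −0.11 (exact p = 0.124), and Per3 5/5 minus Per3 4/4 was 0.18 (exact p = 0.042, not adjusted).

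**Figure D2:**
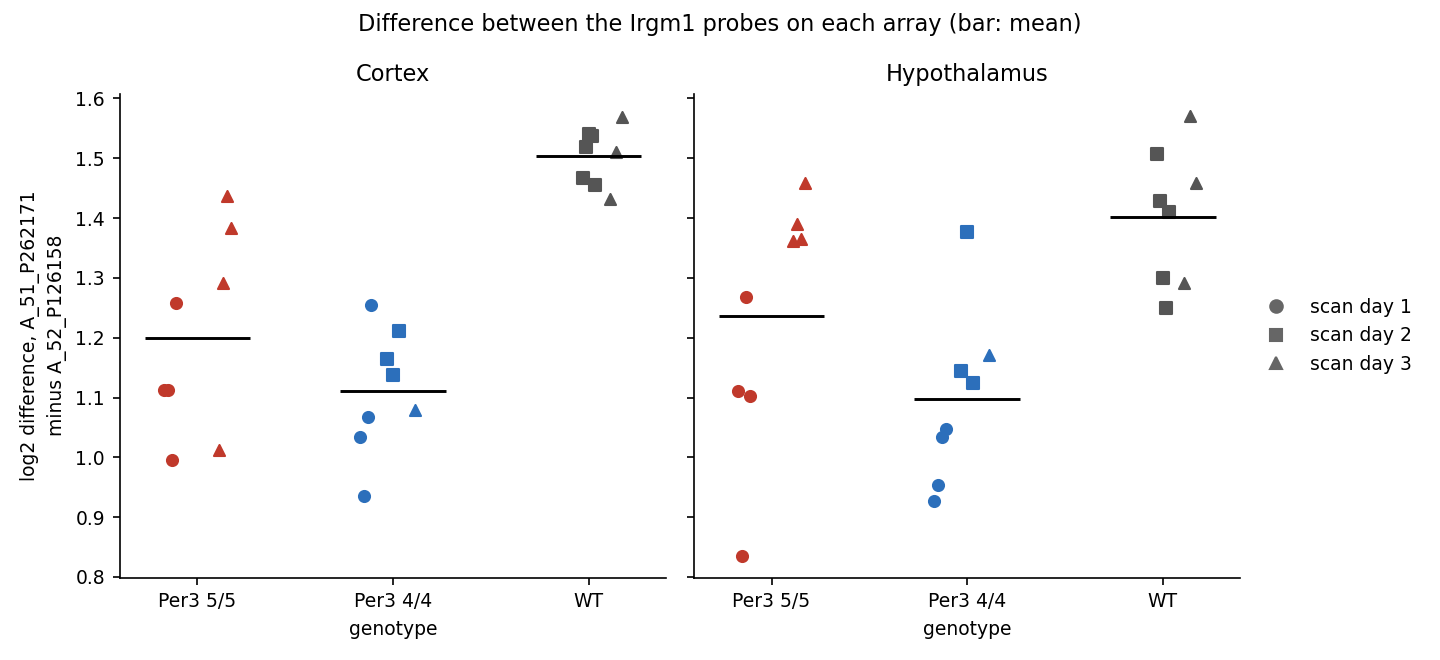
Log2 level of Irgm1 probe A_51_P262171 minus that of A_52_P126158 on each array (vertical axis, log2 units), by genotype and tissue, with 1 point per mouse, the scan day marked and a bar at the mean of 8 mice. In cortex the WT arrays lie at 1.43 to 1.57 and every Per3 4/4 array lies below them, at 0.94 to 1.25.

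Of the other IRG genes, Igtp was lower in Per3 5/5 than in WT mice and Iigp1 passed no test. Igtp encodes a GTPase of the family that acts at vacuole membranes. Its mean of both tissues ran from 0.64 through 0.79 to 1.34 in WT, from 0.31 through 0.54 to 0.87 in Per3 5/5 and from 0.43 through 0.65 to 1.05 in Per3 4/4 mice. The groups overlapped. Per3 5/5 mice were lower than WT (−0.33 ± 0.11, adjusted p = 0.0280), and the values by tissue were −0.26 (adjusted p = 0.124) in cortex and −0.41 (adjusted p = 0.0845) in hypothalamus. The call was lost when scan day was blocked (−0.25, adjusted p = 0.219) and without the replicate 2 mice (−0.29, adjusted p = 0.0584). Iigp1, a GTPase known for its action on the vacuoles of intracellular parasites, ran in cortex from −2.76 through −2.21 to −1.63 in WT, from −3.29 through −2.31 to −2.03 in Per3 5/5 and from −3.02 through −2.44 to −1.42 in Per3 4/4. In hypothalamus its medians were −1.87, −2.19 and −2.02 in the same order, and all groups overlapped. Its differences lay between −0.35 and −0.07 in all comparisons of genotypes, and none was called.

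Of the guanylate-binding proteins, GTPases that attack the membranes around intracellular microbes, Gbp3 was lower in Per3 5/5 mice and Gbp2 passed no test. The mean Gbp3 level of both tissues ran from −1.10 through −0.68 to −0.36 in WT and from −1.28 through −1.19 to −0.81 in Per3 5/5, so the groups overlapped. The difference was −0.41 ± 0.11 (adjusted p = 0.00981, and −0.40 with 0.0162 without the replicate 2 mice). In hypothalamus Gbp3 differed by −0.47 ± 0.15 (adjusted p = 0.0329) and without the replicate 2 mice by −0.48 (adjusted p = 0.0513), and in cortex it differed by −0.34 (adjusted p = 0.106). When scan day was blocked no Gbp3 difference was called, and the values were −0.08 in cortex, −0.41 in hypothalamus (adjusted p = 0.201) and −0.24 in the mean (adjusted p = 0.193). Gbp2 ran from −1.86 through −0.83 to 0.05 in Per3 5/5 hypothalamus, from −0.66 through −0.46 to 0.20 in Per3 4/4 and from −1.30 through −0.70 to 0.11 in WT. The groups overlapped, and its Per3 5/5 minus Per3 4/4 difference there was −0.57 (adjusted p = 0.259). In cortex its medians were −1.63 in Per3 5/5, −1.61 in Per3 4/4 and −1.44 in WT.

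Ifit1, which binds foreign 5′ RNA ends, was lower in Per3 5/5 mice in the mean of both tissues, and Ifit3, its binding partner, was not called. The mean Ifit1 level ran from −3.04 through −2.70 to −2.26 in WT and from −3.43 through −3.14 to −2.79 in Per3 5/5. The groups overlapped, and the difference was −0.45 ± 0.14 (adjusted p = 0.0226). In cortex it was −0.47 (adjusted p = 0.0937) and in hypothalamus −0.43 (adjusted p = 0.0713). The mean was −0.16 (adjusted p = 0.472) when scan day was blocked, −0.27 (adjusted p = 0.0784) with normexp background correction and −0.41 (adjusted p = 0.0446) without the replicate 2 mice. The differences of Ifit3 between genotypes lay between −0.20 and 0.07 in all 3 comparisons and both tissues. Its cortex medians were 0.09 in WT, 0.05 in Per3 4/4 and −0.13 in Per3 5/5, and its hypothalamus medians were 1.21, 1.30 and 1.13 in that order.

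Isg15, a ubiquitin-like modifier, was higher in Per3 4/4 mice. Its mean of both tissues ran from −2.07 through −1.46 to −1.05 in Per3 4/4, from −2.27 through −1.89 to −1.48 in WT and from −2.47 through −1.73 to −1.51 in Per3 5/5. Of the Per3 4/4 mice 4 of 8 lay above every WT mouse. The difference from WT was 0.42 ± 0.15 (adjusted p = 0.0337). By tissue it was 0.35 (adjusted p = 0.102) in cortex and 0.49 (adjusted p = 0.103) in hypothalamus. The call was lost when scan day was blocked (0.30, adjusted p = 0.176), with arrays centred on their median (0.36, adjusted p = 0.0895) and without the replicate 2 mice (0.42, adjusted p = 0.0535). Isg15 lies on chromosome 4, as Per3 does, with 88 protein-coding genes between them.

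Over the group, most differences of Per3 5/5 mice from both other genotypes were below 0, and few passed the test. The median log2 difference of the 10 probes in the mean of both tissues was −0.28 for Per3 5/5 minus WT and −0.18 for Per3 5/5 minus Per3 4/4, where all 10 were below 0, against 0.05 and 0.01 over all tested probes. For Per3 4/4 minus WT it was −0.04, against 0.02. With scan day as a block the median for Per3 5/5 minus WT was −0.18 in the mean, −0.25 in hypothalamus and −0.04 in cortex, where it had been −0.26 without the block. With slide as a fixed block it was 0.13 in the mean, where 7 of 10 were above 0, and 0.26 in hypothalamus, where all 10 were above 0, so the direction of the group turned. No slide held both Per3 5/5 and WT mice, and that value runs through the Per3 4/4 mice. In cortex 3 of 10 probes were called between Per3 4/4 and WT, and the percent called over all probes was 22.5. Between Per3 5/5 and WT cortex 1 of 10 was called, with a percent called of 12.4. In hypothalamus 1 of 10 was called in each comparison with WT, with a percent called of 15.1 for Per3 4/4 and 18.8 for Per3 5/5. In the mean of both tissues 2 of 10 were called for Per3 4/4 and 4 of 10 for Per3 5/5, with a percent called of 30.4 and 27.2. All 4 calls for Per3 5/5 were lower, with a percent called of 10.8 in that direction. With scan day as a block 1 of 10 was called in the mean for Per3 5/5, Irgm1 A_51_P262171, and 0 in the mean for Per3 4/4, with a percent called of 11 and 12.1. In the single tissues the block left 0 of 10, with a percent called in cortex of 0.986 for Per3 5/5 and 7.72 for Per3 4/4, and in hypothalamus of 2.1 and 0.745.

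Groups of 8 mice that did not overlap at all were found for 1 of 10 probes, Irgm1 A_51_P262171 in Per3 5/5 against WT, in cortex and in the mean of both tissues. Over all probes this comparison gave 1.14% such probes in cortex, 4.22% in the mean and 2.66% in hypothalamus. The comparison of Per3 4/4 with WT gave none of the 10, and 6.7%, 7.79% and 1.86% of all probes in the same order. Between the knock-ins it was none of the 10, and 0.037%, 0.065% and 0.026% of all probes. For none of the 10 probes was a genotype difference called as unequal between the tissues, with 0 called by limma's interaction test and 0 at an unadjusted p under 0.05, beside a percent called of 0.00961 for Per3 5/5 against WT, 0.0032 for Per3 4/4 against WT and 0 between the knock-ins.

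**Figure D3:**
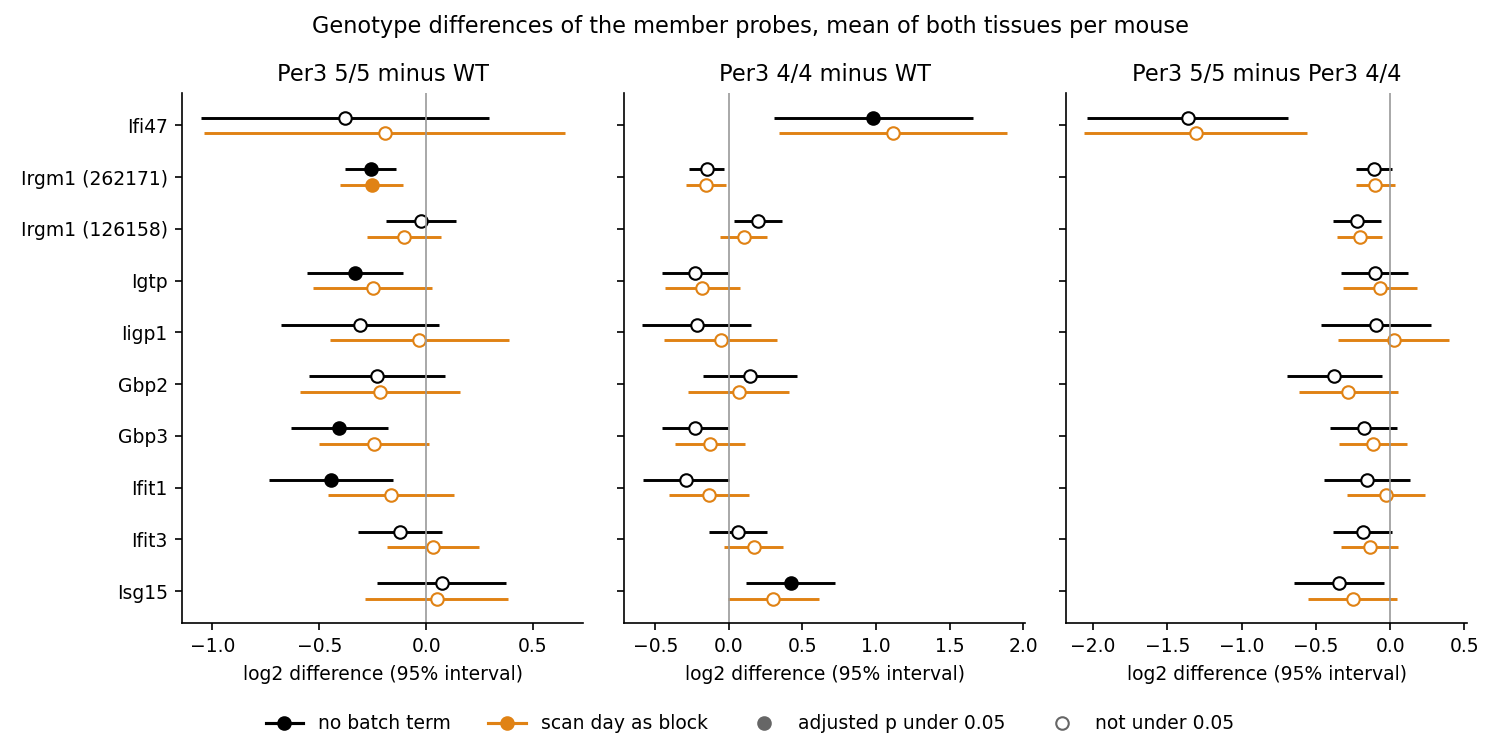
Log2 difference between genotypes in the average over cortex and hypothalamus for each mouse (axis in log2 units) for the 10 probes, with 95% intervals, in black without a batch term and in orange with scan day as a block, and filled where the adjusted p was under 0.05. Most Per3 5/5 minus WT values lie below 0, and with the block the one filled value is Irgm1 A_51_P262171 at −0.25.

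Markers of other cells were summed on the linear scale of the signal over the 75th percentile. The 8 microglial markers summed to 8.02 to 24.1 in Per3 5/5 cortex, 15.7 to 26.7 in Per3 4/4 and 14.9 to 20.8 in WT cortex. In hypothalamus they summed to 4.82 to 14.6, 11.3 to 14.5 and 10.1 to 16.5 in the same order. The lowest sums were in Per3 5/5 mice, the genotype in which Igtp, Gbp3 and Ifit1 were lower than in WT. The median sum was 15.6 in Per3 5/5 against 18.1 in WT cortex, and 11.4 against 11.1 in hypothalamus. In the mean of both tissues all 8 microglial markers were below 0 for Per3 5/5 minus WT, with a median log2 difference of −0.32, and 2 were called, none with scan day as a block. Of 5 blood cell markers 3 were called lower in Per3 5/5 than in WT in the mean, and 2 with the block, while the other 2 were above 0. Beside these microglial and blood cell counts, the percent called over all probes was 27.2 in the mean, with 10.8 lower, and 11 with the block. The median log2 difference of the 5 was −1.09 in the mean and −1.73 in hypothalamus. Their summed level did not go the same way in cortex, with a median of 47.7 in Per3 5/5 against 35.0 in WT. In hypothalamus the median sum was 39.3 against 41.1. T cell markers, 4 of 5 of which were tested in cortex, summed to 0.10 to 0.32 in all groups. The part of these cells in the differences was not tested, and in whole tissue fewer cells of a type and less RNA per cell cannot be told apart.

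Between the tissues, 9 of the 10 probes were higher in hypothalamus than in cortex. Ifit3 ran from −0.51 through 0.03 to 0.49 in cortex and from 0.86 through 1.19 to 1.77 in hypothalamus over 24 mice, with no overlap, and differed by 1.21 ± 0.06 (adjusted p = 7.57e-16, paired by mouse). Gbp2 differed by 0.94 and Ifit1 by 0.79. The remaining called differences were 0.41 ± 0.08 for Ifi47 (adjusted p = 5.05e-05), 0.39 for Iigp1, 0.33 for Igtp, 0.24 for Isg15 (adjusted p = 0.0167) and 0.22 and 0.19 for the Irgm1 probes. These 9 calls stood beside a percent called of 73.6 over all probes and 38.1 in that direction. Gbp3 differed by 0.16 (adjusted p = 0.0690). With normexp background correction Ifi47 differed by 0.06 (adjusted p = 0.528) and Isg15 by 0.16 (adjusted p = 0.0820), and with arrays centred on their median Isg15 differed by 0.17 (adjusted p = 0.0916).

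Across mice, Ifi47 was the member whose level in 1 tissue most closely followed that in the other tissue. Over 24 mice its cortex and hypothalamus levels correlated with Pearson's r of 0.91 and Spearman's rho of 0.90, each with a permutation p of 1e-05, the smallest that 100000 resamples can give. The adjusted p over 28918 probes, from the normal theory of Pearson's r, was 8.01e-08. Without the 2 mice farthest from the median r was 0.90, and without the replicate 2 mice it was 0.91. Of all probes tested in both tissues 99.0% had an r as high or lower, and 83.2% with normexp background correction, where r was 0.68. The relation also held within each scan day, with r of 0.98, 0.91 and 0.85 for days 1, 2 and 3 (exact permutation p of 0.000248, 0.000719 and 0.00821). Each day held more than 1 genotype. Without the 2 mice of a day farthest from its median in cortex, r was 0.96, 0.63 and 0.59. Within genotypes the Per3 4/4 mice had an r of 0.93, the Per3 5/5 mice 0.93 and the WT mice 0.51 (exact permutation p of 0.00188, 0.00332 and 0.201). Without the 2 mice farthest from the median, these were 0.77 for Per3 4/4, 0.45 for Per3 5/5 and −0.09 for WT, so within Per3 5/5 the relation rested on those mice. For deviations from the mean of each genotype and scan day r was 0.89. The arrays of 1 mouse lay on the same slide and were scanned together.

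The other probes followed the mouse less closely. Irgm1 A_52_P126158 had an r of 0.61 and a rho of 0.59 over 24 mice (permutation p of 0.00194 and 0.0034, adjusted p for r of 0.0057). Irgm1 A_51_P262171 had an r of 0.50 and a rho of 0.41 (permutation p of 0.00984 and 0.044, adjusted p for r of 0.0282). Without the 2 mice farthest from the median these r were 0.53 and 0.48. Within scan days r was 0.60, 0.28 and 0.49 for the former and 0.16, 0.54 and 0.54 for the latter, and no exact permutation p was under 0.05. The r of Isg15 was 0.45, of Ifit1 0.42, of Iigp1 0.41, of Ifit3 0.39, of Igtp 0.36, of Gbp3 0.34 and of Gbp2 0.27, with adjusted p between 0.0519 and 0.271. Thus 3 of 10 probes passed the threshold, with a percent called of 51.2 over all probes. The median r of the 10 probes was 0.42 and that of all probes 0.46.

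**Figure D4:**
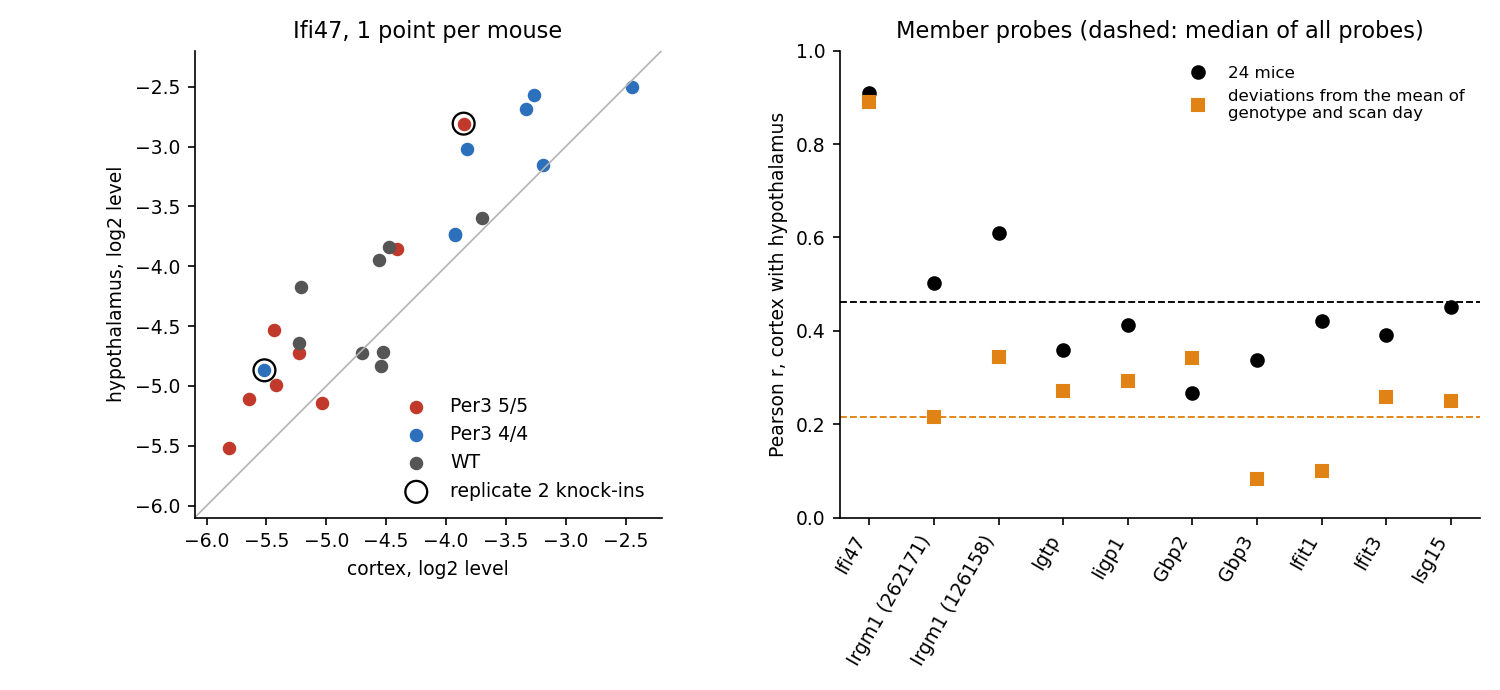
Left, Ifi47 level in hypothalamus against that in cortex (log2 units) with 1 point per mouse, coloured by genotype, rings on the replicate 2 knock-in mice and a line of equality. Right, Pearson's r between the tissues for the 10 probes over 24 mice (black) and for deviations from the mean of genotype and scan day (orange), with dashed lines at the medians of all probes. Ifi47 stands at 0.91 and 0.89.

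From mouse to mouse the members correlated positively with each other, to unequal degrees. Over the mean of both tissues in 24 mice, the 36 pairs of genes had a median Pearson's r of 0.45, between 0.01 for Igtp with Isg15 and 0.87 for Gbp3 with Iigp1. Gbp3 correlated with Ifit1 at 0.81 and with Irgm1 at 0.80, and Ifit1 with Iigp1 at 0.76. The 28 pairs without Ifi47 had a median of 0.55, and the pairs with Ifi47 had a median of 0.27 and lay between 0.07 and 0.47. The pairs with Isg15 had a median of 0.30, close to that of Ifi47. For deviations from the mean of genotype and scan day the median was 0.56 for the pairs without Ifi47, 0.30 for those with Ifi47, 0.33 for those with Igtp and 0.59 for those with Isg15. Other gene pairs on these arrays were not computed. The points share mice, arrays and their scaling, and the values are a description. The genes whose mouse means were most like the mean of the 9 genes were Sp110 with an r of 0.86, Tnfsfm13 with 0.84, Rtp4 with 0.83, Dnase1l1 with 0.82 and the IRG gene Irgm2 with 0.81.

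**Figure D5:**
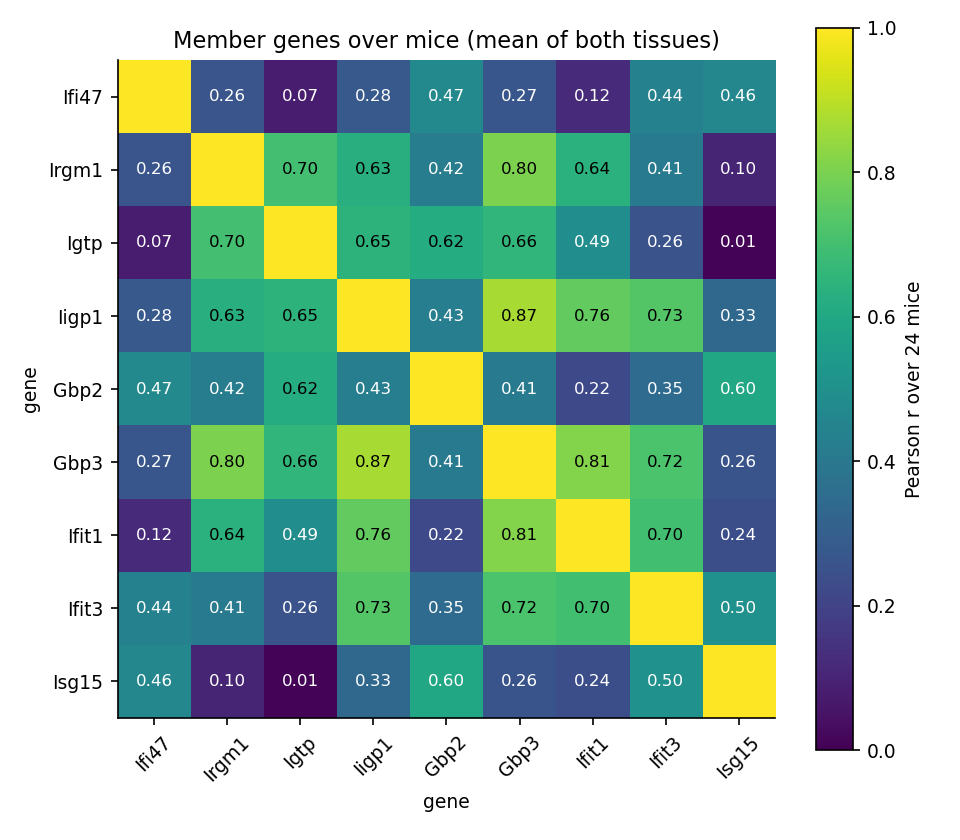
Pearson's r between genes (colour scale) over the mean level of both tissues in 24 mice, for the 9 genes with Irgm1 by its brighter probe. Gbp3, Iigp1, Ifit1 and Irgm1 form the block of high values, up to 0.87, and the pairs with Ifi47 lie between 0.07 and 0.47.

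None of these was among the 5 genes whose mouse means were most like Ifi47. Tgtp1, another interferon-induced T cell specific GTPase of the IRG family, had an r of 0.93 with probe A_52_P676510. Fbxo6, a subunit of a ubiquitin ligase, had an r of 0.77, and Thg1l, Ppdpf and Gskip had an r of 0.76 each. Without the replicate 2 mice these were 0.93, 0.79, 0.76, 0.75 and 0.75. Tgtp1 lies 3 genes before Ifi47 on chromosome 11, and its near-identical copy Tgtp2 could contribute to the signal of the probe. A second Tgtp1 probe, A_51_P478722, had an r of 0.06 with Ifi47.

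These genes were picked for their likeness to Ifi47 over the same mice, so their genotype differences are a description and carry no test. In cortex Tgtp1 A_52_P676510 ran from −3.28 through −2.17 to −0.87 in Per3 4/4, from −3.54 through −3.17 to −2.36 in WT and from −3.52 through −2.96 to −2.18 in Per3 5/5 mice. Per3 4/4 minus WT was 0.94 in cortex, 1.13 in hypothalamus and 1.04 in the mean, and 1.07, 1.11 and 1.09 when scan day was blocked. Per3 5/5 and WT means differed by −0.04. The r of Tgtp1 between the tissues was 0.84, as high as or higher than that of 96.7% of all probes. For Fbxo6 the mean difference of Per3 4/4 minus WT was 0.63, and 0.59 when scan day was blocked.

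By position, the probes most like Ifi47 were not spread evenly. Of the 50 probes with the highest absolute r, the lowest of which was 0.68, 13 were on chromosome 4 (26%, against 6.11% of 22721 named probes) and 7 on chromosome 11 (14%, against 7.95%). These shares count probes, so a gene with several probes counts more than once. On chromosome 4, 10 of these probes, for 7 genes, lay 40 to 49 protein-coding genes before Per3. Among them were probes of Clcn6, Agtrap, Mad2l2, Fbxo6 and Fbxo44. A window of 100 genes on either side of Per3 held 203 named probes, 0.893% of all. Ifi47 itself lies on chromosome 11, 8 genes after Irgm1 and 134 genes before Igtp.

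The rest of the interferon pathway was read from a list of 120 genes, of which 110 were on the array and 97 were tested in the mean of both tissues. In Per3 4/4 against WT 9 genes were higher and 7 lower, 16.5% of the 97 beside a percent called of 30.4 for all probes (16.9 higher and 13.5 lower). In Per3 5/5 against WT 1 was higher and 17 lower, 18.6% beside 27.2 for all probes (16.4 higher and 10.8 lower), and between the knock-ins 0 were called. The median log2 differences of the list were 0.03, −0.08 and −0.12 in that order. With scan day as a block 4 were higher and 4 lower in Per3 4/4, and 0 were higher and 6 lower in Per3 5/5. The percent called for all probes with the block was 12.1 for Per3 4/4 and 11 for Per3 5/5. Without the replicate 2 mice 9 were higher and 4 lower in Per3 4/4, and 1 was higher and 15 lower in Per3 5/5, with a percent called of 25.6 and 24.5 for all probes.

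Among the receptors and kinases of the pathway, Ifngr1, a chain of the interferon gamma receptor, was lower in Per3 4/4 than in WT (−0.43, adjusted p = 0.00252) and in Per3 5/5 (−0.35). Ifnar2, a chain of the type I receptor, was lower in Per3 5/5 (−0.32, adjusted p = 0.00381), and the kinase Jak1 was lower in Per3 4/4 (−0.21) whereas Tyk2 was higher by 0.33. Of the sensors, Ifih1, which binds viral RNA, was lower in Per3 5/5 (−0.48, adjusted p = 0.00114), as were Tlr4 (−0.65, adjusted p = 0.00545) and Tlr7 (−0.58). Of the transcription factors, Irf7 was higher in Per3 4/4 by 0.56 (adjusted p = 0.0102), Irf2 was lower there (−0.52, adjusted p = 0.0133) and Irf1 was lower in Per3 4/4 (−0.20) and in Per3 5/5 (−0.22). Without the replicate 2 mice the call of Jak1 and both calls of Irf1 were lost.

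Among the targets, the antiviral synthetase Oas1a was higher in Per3 4/4 by 0.49 (adjusted p = 0.00591) and Trim21, an antibody receptor of the cytosol, was lower in Per3 4/4 (−0.41, adjusted p = 0.00129) and in Per3 5/5 (−0.65, adjusted p = 8.86e-05). Of the genes of antigen presentation, the peptide transporters Tap1 and Tap2 were higher in Per3 4/4 by 0.60 (adjusted p = 0.0274) and 0.31. The class I genes H2-K1 and B2m were lower in Per3 5/5 (−0.38 with an adjusted p of 0.00472, and −0.35). H2-K1 was lower in Per3 4/4 too (−0.27, adjusted p = 0.0287), a call that was lost without the replicate 2 mice. Samd9l was lower in Per3 5/5 (−0.51, adjusted p = 0.0116). Irgq, of the listed GTPases, was higher in Per3 4/4 (0.25, adjusted p = 0.00726) and in Per3 5/5 (0.24, adjusted p = 0.00999). Of 9 listed interferon ligands 7 were on the array, and 1, Ifna2, was tested in the mean of both tissues. It was higher in Per3 4/4 than in WT by 0.77 (adjusted p = 0.0279). The Ifna2 probe was dim, with a mean level of −4.61 in Per3 4/4 and −5.38 in WT. Whether array brightness had a part in this difference was not tested, and it does not show that interferons as a group were higher. When scan day was blocked, limma still called Oas1a (0.40, adjusted p = 0.0393), Trim21 (−0.33, adjusted p = 0.0145) and Ifngr1 (−0.38, adjusted p = 0.0234) in Per3 4/4. Tgtp1 of the list was called there too, but it was picked above for its likeness to Ifi47, so that call carries no test. In Per3 5/5 limma still called Trim21 (−0.57, adjusted p = 0.0040), Ifih1 (−0.43, adjusted p = 0.0174), Samd9l (−0.53, adjusted p = 0.0165) and Ifnar2 (−0.35, adjusted p = 0.0201). The other differences named in these paragraphs on the pathway were not called with the block.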

How the data were processed

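RNA of frontal cortex and hypothalamus from 24 mice was hybridised to 48 Agilent 1-colour arrays, 8 for each genotype and tissue, grouped by the labels. The authors deposited Feature Extraction 10.7.1.1 output, in which the processed signal is a linear intensity, background subtracted and not scaled between arrays. They also deposited a table of log2 values shifted to the 75th percentile in GeneSpring and centred per probe, used here as an alternative.

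Here the 75th percentile of each array was subtracted from its processed signal on the log2 scale, outlier spots were left out, spots of a probe were averaged, and a probe was tested if 6 or more of the 8 arrays of some group were well above background. The probes tested were 29715 in cortex, 30735 in hypothalamus and 29222 for the mean of both tissues. The precision of each value is limited by the number of arrays. Genotypes were compared with limma 3.58.1 in R 4.3.3 (lmFit and eBayes, two-sided), with all 24 mice in 1 fit, and the tissues and the genotype by tissue interaction with the mouse as a block. Benjamini-Hochberg adjustment was over all tested probes, and the code was tested on simulated data. The labels do not say how the mice relate to each other, so p values measure the spread between these mice.

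All probes of the 9 genes are named. Pathway genes are named from those called in the mean of both tissues, and neighbours by the highest Pearson's r over the mouse means. The members, lists and tests were chosen with earlier results of these data known. Alternatives were scan day or slide as a block, the replicate number as a block, 1 scan day alone, normexp correction of the median spot and background signals (offset 50), median centring, quantile normalization, the authors' table, no filter, the methods' t-test and leaving out mice. The replicate 2 and the dimmest mice were chosen after seeing the data. Symbols and promoter windows came from RefSeq tables (GRCm38.p6), and the array's own coordinates were not used.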

Additional observations from a re-analysis of the deposited data

Results flagged for a closer look

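In 3 of 60 groups of 8 mice, 1 mouse lay far from the others of its group by Dixon's criterion, a share that chance alone gives in about 5% of groups. In WT hypothalamus the Ifit3 level of replicate 3 was 1.77, and the next highest was 1.29. In Per3 5/5 hypothalamus the Igtp level of replicate 1 was 1.54, and the next highest was 0.82. In Per3 4/4 hypothalamus the level of Irgm1 probe A_52_P126158 in replicate 6 was −1.64, and the next lowest was −1.30; this mouse was among the 2 dimmest of its genotype.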

How the results depend on the processing

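Most calls of the 10 probes were lost with scan day as a block. The percent called over all probes fell too, and the Ifi47 differences of Per3 4/4 from WT did not shrink. Whether the day itself or a loss of precision took the calls was not tested. Each count here is of probes called among the 10. With scan day as a block, or with the mice of day 2 or day 3 alone, 0 were called in each comparison with WT that could be fitted, except 1 (Irgm1 A_51_P262171) for Per3 5/5 in the mean of both tissues with the block. With slide as a fixed block 0 were called, and for Per3 5/5 minus WT all 10 differences in hypothalamus (0.05 to 0.59) and 7 of 10 in the mean were above 0, against 1 of 10 in each without it. Of the called ones Gbp3 turned to 0.24 in hypothalamus and to 0.14 in the mean, and Ifit1 to 0.20 in the mean. With slide as a random block 0 were called in hypothalamus in either comparison with WT. With the arrays centred on their median, which moved the median difference of all cortex probes for Per3 5/5 from 0.06 to −0.05 and the cortex calls of all probes from 2509 higher and 1161 lower to 663 higher and 2795 lower, 1 (cortex) and 0 (hypothalamus) were called for Per3 4/4, and 4 and 3 for Per3 5/5. The percent called over all probes with median centring was 18.4 and 13.5 for Per3 4/4, and 11.6 and 17.7 for Per3 5/5. Quantile normalization gave 1 and 0 for Per3 4/4 and 2 for Per3 5/5 cortex. With normexp 5 were called for Per3 4/4 in cortex and 5 in the mean, beside 54.5% and 51.1% of all probes, and 2 and 0 for Per3 5/5 in cortex and hypothalamus, beside 30.9% and 6.37%, and the r of Ifi47 between the tissues was 0.68. The probes not filtered, or the dimmest mice left out, gave 0 for Per3 4/4 hypothalamus, and the methods' t-test gave 0 for Per3 5/5 hypothalamus. Without the dimmest mice the percent called over all probes for Per3 4/4 hypothalamus was 20.2. Shares over all probes are not given for slide or replicate blocks, single scan days, quantile normalization, the t-test or unfiltered probes. They are also not given for the fits without 1 mouse below, so these counts stand without a background.

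The replicate numbers were not used to pair the mice. The mean correlation of the deviations of same-numbered mice lay between −0.02 and 0.20, and not every pair exceeded 0.1. A low correlation does not show that there was no pairing. Between the knock-ins, where replicates 1 to 4 of the same number shared a slide, the mean was 0.17 in cortex and 0.20 in hypothalamus. The replicate block gave 1 call for Per3 4/4 cortex and 4 for Per3 5/5 hypothalamus. Without the mouse as a block, the Ifi47 difference between the tissues had an adjusted p of 0.0707.

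The replicate 2 knock-in mice were noticed through Ifi47, so any Ifi47 call made without them carries no test. Without them and without a block, 38, 43 and 63 probes of the whole array were called between the knock-ins in cortex, hypothalamus and the mean. Ifi47 was the only member probe among them, also with scan day as a block. For Per3 4/4 against WT 1 was called in the mean (25.6% of all probes), and with the block 1 in cortex, 1 in hypothalamus and 1 in the mean (6.99%, 0.355% and 10.73% of all probes). The probe was Ifi47 each time, so these calls carry no test. For Per3 5/5 against WT 0 were called in hypothalamus (15.3% of all probes). With the block 0 were called in cortex, 0 in hypothalamus and 1 in the mean (0.0202%, 1.19% and 9.07% of all probes).

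Without 1 mouse at a time, the counts for Per3 4/4 against WT were 1 to 3 in cortex, 0 to 1 in hypothalamus and 0 to 4 in the mean, those for Per3 5/5 against WT were 1 to 1, 0 to 3 and 3 to 4, and those between the knock-ins were 0 to 1 in each. Irgm1 A_51_P262171 stayed called for Per3 5/5 in cortex and in the mean without any single mouse. The Ifi47 calls for Per3 4/4 in cortex and hypothalamus remained only without Per3 4/4 replicate 2 or 6 or WT replicate 6, and in the mean the call was lost without Per3 4/4 replicate 1, 3 or 7. Ifi47 between the knock-ins became called only without a replicate 2 mouse, and as these mice were noticed through Ifi47 those calls carry no test. The difference was −1.69 in cortex and −1.61 in the mean without Per3 4/4 replicate 2. Without Per3 5/5 replicate 2 it was −1.56 in hypothalamus and −1.58 in the mean. The other losses, all to an adjusted p of 0.05 or more, were Gbp3 in hypothalamus (without Per3 5/5 replicate 3 or 6 or WT replicate 1, 2, 3 or 8), Ifit1 in the mean (WT replicate 3), Igtp in the mean (Per3 5/5 replicate 2 or 7 or WT replicate 1, 4 or 8), Irgm1 A_51_P262171 for Per3 4/4 cortex (Per3 4/4 replicate 2, 6 or 8 or WT replicate 1 or 8) and Isg15 in the mean (Per3 4/4 replicate 1, 3 or 7 or WT replicate 5, 6 or 8). Dim signal also limits Ifi47, as 1 of 8 Per3 5/5 cortex arrays was not well above background.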
